A study of Mus musculus with 21 samples.

Results

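Collagens, laminins and the proteins that link and process them make up the basement membrane and the interstitial matrix. In the deposited table, 56 genes carried a name of this kind: a collagen chain, a laminin chain, or Fn1, Nid1, Nid2, Hspg2, Sparc, Agrn, Serpinh1, P4ha1, P4ha2 or Loxl2. Of these, 42 had a mean RPKM (reads scaled to gene length and library size) of at least 0.1 over all 21 libraries and are described here, out of 22512 genes in the table. Lox was not analysed here. The members were thus chosen by their measured mean RPKM, and where that mean is given or used to order members it is a description with no test. Just inside the threshold lay Col4a5 at 0.103 and Col1a1 at 0.125, and just outside it lay Col6a6 at 0.0988 and Col26a1 at 0.0976. Of the 42 members, 37 had a group mean of at least 0.1 in all 7 groups. The other 5 (Col20a1, Col11a2, Lama4, Col1a1 and Col4a5) were under it in at least 1 group. All 42 passed the filter on low counts and were tested in every comparison.

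A basement membrane is a thin sheet on which cells sit. Laminins, trimers of an alpha, a beta and a gamma chain, polymerise at the cell surface, type IV collagen forms a second network, and nidogens and the heparan sulphate proteoglycan perlecan tie the networks together. In the early mouse embryo, primitive endoderm and its parietal derivative are known for secreting large amounts of laminin and type IV collagen, and embryonic stem cells also make laminin. Collagen chains are modified in the endoplasmic reticulum by prolyl hydroxylases and folded with the chaperone HSP47 (Serpinh1).

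The libraries, 3 in each of 7 groups, were made from total RNA of mouse embryonic stem cells of 129S6/SvEvTac background. Every group carries a GFP reporter that holds TRIM71 binding sites and stable FLAG-Cas9 with blasticidin resistance, and was grown on gelatin in serum and LIF. TRIM71 is an RNA-binding protein that silences mRNAs, AGO2 is an Argonaute protein that carries microRNAs, and T6B is a fragment of TNRC6B that binds Argonautes and keeps them from their TNRC6 partners. The series asks how these silencing pathways meet at TNRC6.

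Experiment 1 held unedited parental cells (W), Trim71-/- cells (Trim71KO) and Ago2-/- cells (Ago2KO). Experiment 2 held unedited cells transfected with pCIP FH-T6B_WT::mCherry (T6B_WT) or with pCIP FH-T6B_MUT::mCherry (T6B_MUT), and Trim71-/- and Ago2-/- cells transfected with empty plasmid (Trim71KO_empty and Ago2KO_empty). Experiment 2 had no unedited cells with empty plasmid, so T6B_MUT served as the control there, and genotype and plasmid cannot be told apart in its knockout comparisons. How many clones each knockout line came from was not given in the sources used here. P-values measure the spread between these libraries.

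Library totals were 29561125 to 50826201 counts in Experiment 1 and 33910145 to 57872324 counts in Experiment 2. Trim71 RNA was at 65.1, 65.6 and 67.3 RPKM in W and at 44.7, 45.3 and 49.9 in Trim71KO, a fall by 0.50 ± 0.05 (SE) on the log2 scale (edgeR adjusted p = 1.5e-06), and by 0.29 ± 0.08 in Trim71KO_empty against T6B_MUT (adjusted p = 0.012). Ago2 RNA fell by 1.76 ± 0.07 in Ago2KO. In the libraries labelled Ago2KO_empty, Ago2 was at 6.08, 11.4 and 3.21 RPKM, against 7.98, 10.02 and 7.88 in T6B_MUT, so these groups overlapped and the difference did not pass the test (adjusted p = 0.60). These libraries are therefore called by their label throughout. The 8 embryonic stem cell markers examined summed to between 1994 and 2538 RPKM in every library. However, 5 of them rose and 1, Dppa5a, fell in each of Trim71KO and Trim71KO_empty. Of all genes, 16.9% rose and 15.6% fell in Trim71KO, and 14.4% and 13.4% in Trim71KO_empty. Of 10 fibroblast markers listed, the 5 measured summed to between 3.16 and 6.0. Of these, 1 rose and 2 fell in Trim71KO. Thy1 averaged 2.15 RPKM in W and 3.45 in Trim71KO, and Tagln 1.11 and 0.20. Nanog, a pluripotency factor, rose by 0.69 in Trim71KO and by 0.62 in Trim71KO_empty on the log2 scale. The part of these marker changes in the results below was not tested.

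MicroRNA pairing was looked up because 3 of the 7 groups lack AGO2 by their labels or carry the active T6B fragment. The miR-29 family is known for pairing with collagen mRNAs, and the miR-290 and miR-302 families are the characteristic microRNAs of mouse embryonic stem cells. Their mature sequences, from RefSeq (GRCm38), are given below 5′ to 3′ with the seed, bases 2 to 8, in capitals. The first 3 share 1 seed and the last 2 share another.
mmu-miR-29a-3p: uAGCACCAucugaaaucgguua
mmu-miR-29b-3p: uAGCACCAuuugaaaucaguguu
mmu-miR-29c-3p: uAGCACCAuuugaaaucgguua
mmu-miR-294-3p: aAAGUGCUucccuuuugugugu
mmu-miR-302d-3p: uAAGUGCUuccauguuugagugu

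The match to the miR-29 seed, TGGTGCT, was searched on the sense strand of 3′ untranslated regions (GENCODE M21, GRCm38). It was found in 16 of the 42 members (38.1%), against 2007 of 14693 genes with such a region (13.7%), although the members' regions were shorter (median 756.5 bases, against 943). The miR-290 and miR-302 match, AGCACTT, was found in 7 of 42 members (16.7%) and in 15.0% of the genes. The sites below come from members that the results turn on, with the match in capitals. A match is a description of letters and not a site of binding, and microRNA levels were not measured in these libraries.
Col4a1 site, chr8:11199761-11199783, minus strand: gccaccgtcacaacaTGGTGCTa
Col4a2 site, chr8:11448344-11448366, plus strand: gtgggaaggccacgtTGGTGCTt
Col11a1 site, chr3:114219068-114219090, plus strand: ctatttggatttcgtTGGTGCTg
Col5a1 site, chr2:28038335-28038357, plus strand: gttgctgaatgtttgTGGTGCTa
Loxl2 site, chr14:69694733-69694755, plus strand: ccccagctcatggaaTGGTGCTa
Nid1 site, chr13:13510364-13510386, plus strand: catgcctgcaaccctAGCACTTg

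As a description, by the same mean RPKM over all libraries that chose the members, the highest were Lamc1, the gamma 1 chain, at 72.7, the linker Nid2 at 71.5, and Col18a1, a basement membrane collagen, at 59.1. This order pools groups that differ: in W, Col18a1 was at 73.8, 83.0 and 88.4 and Lamc1 at 74.5, 71.5 and 73.9. The collagen-binding glycoprotein Sparc (49.4), fibronectin (Fn1, 47.9), the chaperone Serpinh1 (27.9) and Nid1 (27.7) followed. Type IV collagen lay lower, with Col4a1 at 15.4 and Col4a2 at 4.20. Col1a1, the main chain of type I collagen, was at 0.125, and 21 of the 42 members had means under 1. The 42 members together summed to 509.9 to 535.7 RPKM in W, 418.0 to 428.9 in Trim71KO and 502.9 to 534.4 in Ago2KO, so that the Trim71KO libraries lay below both other groups.

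Much of this set was lower in the Trim71KO libraries of Experiment 1. Against W, 22 of the 42 members fell and 5 rose, where 15.6% of all tested genes fell and 16.9% rose. Leaving out 1 library gave 17 to 22 falls and 4 to 5 rises. The members' median log2 fold change was -0.40, against 0.00 over all genes tested. Those that fell included Col4a1, Col4a2, Lama1, Lamb1, Lamc1, Sparc, Serpinh1, P4ha1 and P4ha2, and those that rose included Col11a1, Nid1, Fn1 and Agrn. Agrn, at 0.15 ± 0.05, and the fall of Hspg2 rested on single libraries: Agrn lost its call without W replicate 1, 2 or 3 or without Trim71KO replicate 1 or 2 (adjusted p up to 0.12).

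Fewer members were called in Ago2KO of Experiment 1, and in both directions. Of the 42, 8 rose and 6 fell, where 10.2% and 7.78% of all genes did, and the members' median was 0.01. The 6 that fell were Col4a1, Col4a2, Lama1, Lamb1, P4ha1 and P4ha2. The 8 that rose included Col11a1, Loxl2, Col9a2, Nid1, Col5a1, Hspg2 and Lama5. This comparison and the one for Trim71KO use the same 3 W libraries. Compared directly, 23 members were lower and 2 higher in Trim71KO than in Ago2KO (17.1% and 17.1% of all genes), the 2 being Fn1 and Col5a2. Without Trim71KO replicate 1 or 2 or Ago2KO replicate 1 or 2 that count of 2 became 0, and without Ago2KO replicate 3 it became 1.

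The T6B peptide raised members and lowered none that passed the test. Against T6B_MUT, 13 of 42 rose, where 9.29% of all genes did, and 0 fell, where 6.69% did. DESeq2 also called 0 lower, and at an unadjusted p under 0.05 the count was 1, Lama1. Leaving out 1 library gave 10 to 12 rises in place of 13. The members' median was 0.21. The 13 included Lama3, Lamb1, Nid1, Nid2, 5 fibrillar collagens (Col5a2, Col2a1, Col11a1, Col27a1 and Col5a1), Col6a5, Col9a2 and Col13a1. Calls with single libraries left out are not given here for Col5a2, Col2a1, Col27a1, Col5a1 or Col6a5. The calls of Nid2, Lamb1 and Col13a1 were lost when any of 5 or 6 single libraries was left out: Nid2 without each but T6B_WT replicate 3, Lamb1 without each but T6B_WT replicate 1, and Col13a1 without any one (adjusted p up to 0.16, 0.15 and 0.18).

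In Experiment 2 the Trim71-/- cells gave a more even picture. In Trim71KO_empty against T6B_MUT, 13 members fell and 10 rose (13.4% and 14.4% of all genes), with a median of 0.07. The libraries labelled Ago2KO_empty had 17 members higher and 1 lower than T6B_MUT, where 16.4% and 12.4% of all genes were, with a median of 0.27. Leaving out 1 library took the count of 17 to between 12, without T6B_MUT replicate 3, and 20, without Ago2KO_empty replicate 3. The count of 1 lower, Col18a1, became 0 without T6B_MUT replicate 1 or Ago2KO_empty replicate 1, and 2 without Ago2KO_empty replicate 2 or 3. Compared directly, 19 members were lower and 7 higher in Trim71KO_empty than in the libraries labelled Ago2KO_empty (16.9% and 14.7% of all genes), and the 7 became 3 without Trim71KO_empty replicate 1.

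**Figure D1:**
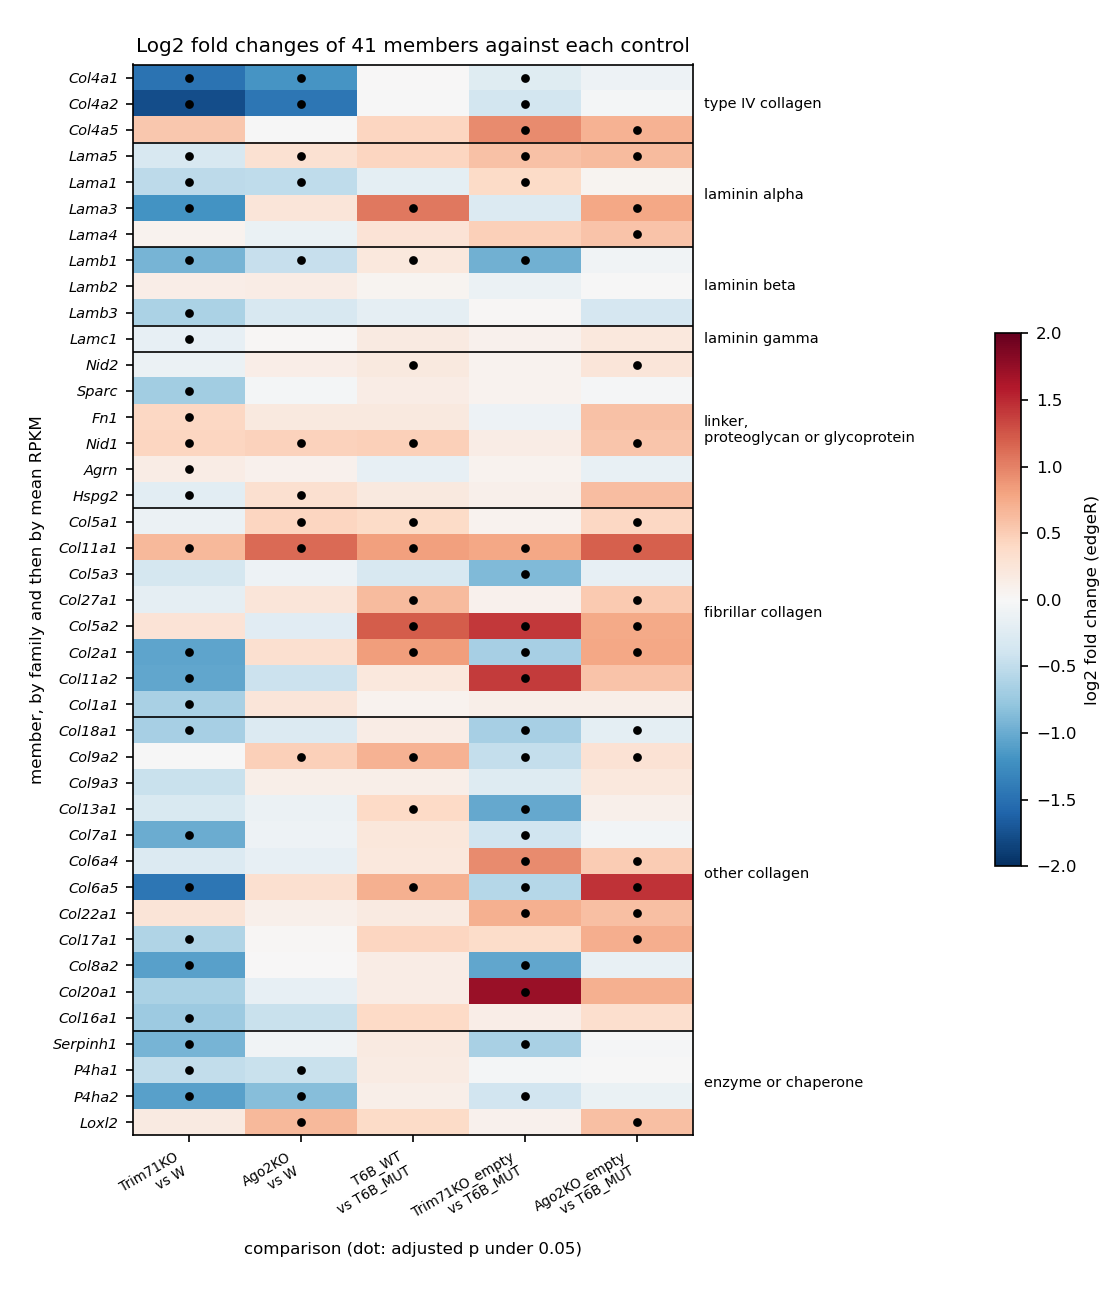
Log2 fold changes (edgeR) of 41 of the 42 members (rows, by family and then by mean RPKM) in the 5 comparisons with a control (columns). Black dots mark members at an adjusted p under 0.05: 26 in the first column, 13 in the second and 12, all higher, in the third.

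The 2 experiments share no library, and the difference between their fold changes was tested. For Trim71, 16 members had a higher fold change in Experiment 2 than in Experiment 1 and 2 had a lower one, where 5.04% and 5.01% of all genes did. Those 2, Col9a2 and Col13a1, lost that call without most single libraries, so that the count fell to between 0 and 1 without any of 3 W, 3 Trim71KO or 3 T6B_MUT libraries or Trim71KO_empty replicate 1 or 2. For Ago2, the counts were 8 and 1, where 1.46% and 0.669% of all genes did. The Experiment 2 side of that difference is the libraries labelled Ago2KO_empty, in which Ago2 RNA was not called lower (edgeR adjusted p = 0.60). Without T6B_MUT replicate 3 the 8 became 5, and without Ago2KO_empty replicate 2 the 1 became 2. Of the 22 members that fell in Trim71KO, 10 also fell in Trim71KO_empty, which is 45.5% of those 22 and 76.9% of the 13 that fell there. They were Col18a1, Col2a1, Col4a1, Col4a2, Col6a5, Col7a1, Col8a2, Lamb1, P4ha2 and Serpinh1. Lama1, Lama5 and Col11a2 fell in Trim71KO and rose in Trim71KO_empty.

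**Figure D2:**
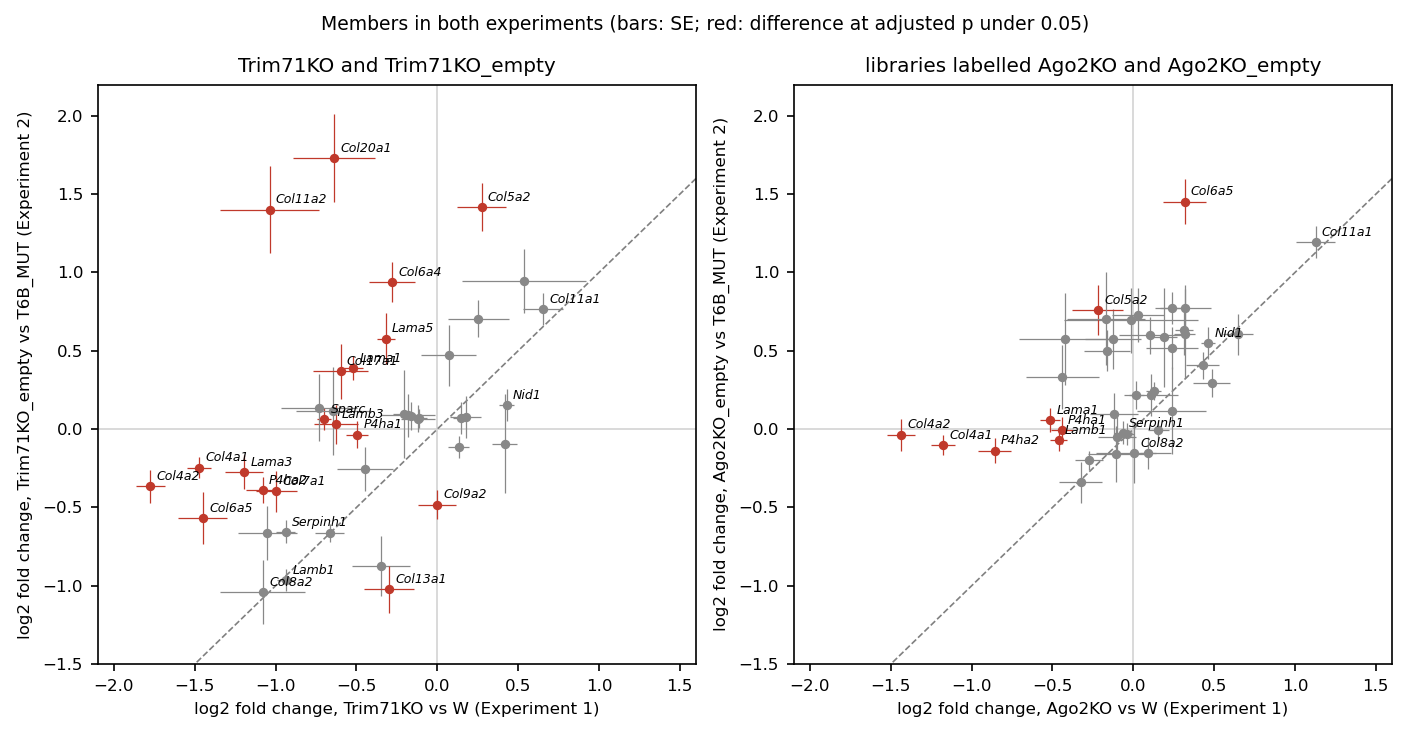
Log2 fold change of 41 members in Experiment 1 (horizontal axis) and Experiment 2 (vertical axis) for Trim71KO and Trim71KO_empty (left) and for the libraries labelled Ago2KO and Ago2KO_empty (right), with SE bars. Red points, 18 on the left and 8 on the right, have a difference between experiments at an adjusted p under 0.05; the dashed line marks equal fold changes, and on the left Lamb1 and Col8a2 lie near it.

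Type IV collagen, the network-forming collagen of basement membranes, fell in both Experiment 1 knockouts more than any other member with a mean RPKM of at least 0.5. Col4a1 (ENSMUSG00000031502, chr8:11198423-11312826, minus strand) was at 20.3, 21.5 and 22.6 RPKM in W, at 7.55, 7.13 and 8.53 in Trim71KO and at 10.3, 8.64 and 9.62 in Ago2KO. The W libraries did not overlap with either knockout. Its log2 fold change was -1.47 ± 0.07 in Trim71KO (edgeR adjusted p = 4.3e-09) and -1.18 ± 0.07 in Ago2KO (adjusted p = 1.2e-07). Col4a2 (ENSMUSG00000031503, chr8:11312805-11449287, plus strand) was at 6.36, 6.68 and 7.13 RPKM in W, 1.81, 1.88 and 2.2 in Trim71KO and 2.60, 2.15 and 2.66 in Ago2KO. Every knockout library was again below every W library, with log2 fold changes of -1.77 ± 0.09 and -1.44 ± 0.09. In bulk RNA, fewer cells that make a transcript and less of it per cell cannot be told apart.

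In Experiment 2 the falls of the same pair were smaller. Col4a1 was at 18.9, 18.1 and 17.9 RPKM in T6B_MUT and at 16.2, 15.1 and 15.0 in Trim71KO_empty, a fall by 0.25 ± 0.07 on the log2 scale (edgeR adjusted p = 0.009, and 0.053 without T6B_MUT replicate 1). Col4a2 fell by 0.37 ± 0.10 there. In the libraries labelled Ago2KO_empty, neither passed the test, at -0.10 ± 0.07 for Col4a1 and -0.04 ± 0.10 for Col4a2, and T6B_WT gave 0.00 ± 0.07 and -0.01 ± 0.10. The Trim71 fold change was higher in Experiment 2 by 1.23 ± 0.10 for Col4a1 and by 1.41 ± 0.14 for Col4a2, and the Ago2 fold change by 1.07 ± 0.10 and 1.39 ± 0.14, all at adjusted p of 4.2e-07 or less in edgeR. The third chain measured, Col4a5, was near the threshold of the set. It was called higher in Trim71KO_empty (0.95 ± 0.20) and in the libraries labelled Ago2KO_empty (0.69 ± 0.21) and in no Experiment 1 comparison. Its group means ran from 0.0388 to 0.191 RPKM, and only 3 of the 7 groups reached 0.1. Col4a5 thus entered the set through the groups where it was high, and these values are a description.

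Col4a1 and Col4a2 lie head to head and are known to be transcribed from a shared promoter region, which is why their start region is shown. In RefSeq (GRCm38.p6) their annotated starts are 21 bases apart, and the annotated 5′ ends overlap. The sequence below is on the plus strand, with the bases from one start to the other in capitals.
Col4a1 and Col4a2 starts, chr8:11312801-11312830: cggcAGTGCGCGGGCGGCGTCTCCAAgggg
Over the 1060 tested genes of chromosome 8, the median was 0.19 (log2) in Trim71KO and 0.00 in Ago2KO. In Trim71KO that was the highest median of any chromosome, followed by 0.07 for chromosome 12. In Trim71KO_empty the chromosome 8 median was 0.09. The part of this shift in the values of both collagens was not tested.

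**Figure D3:**
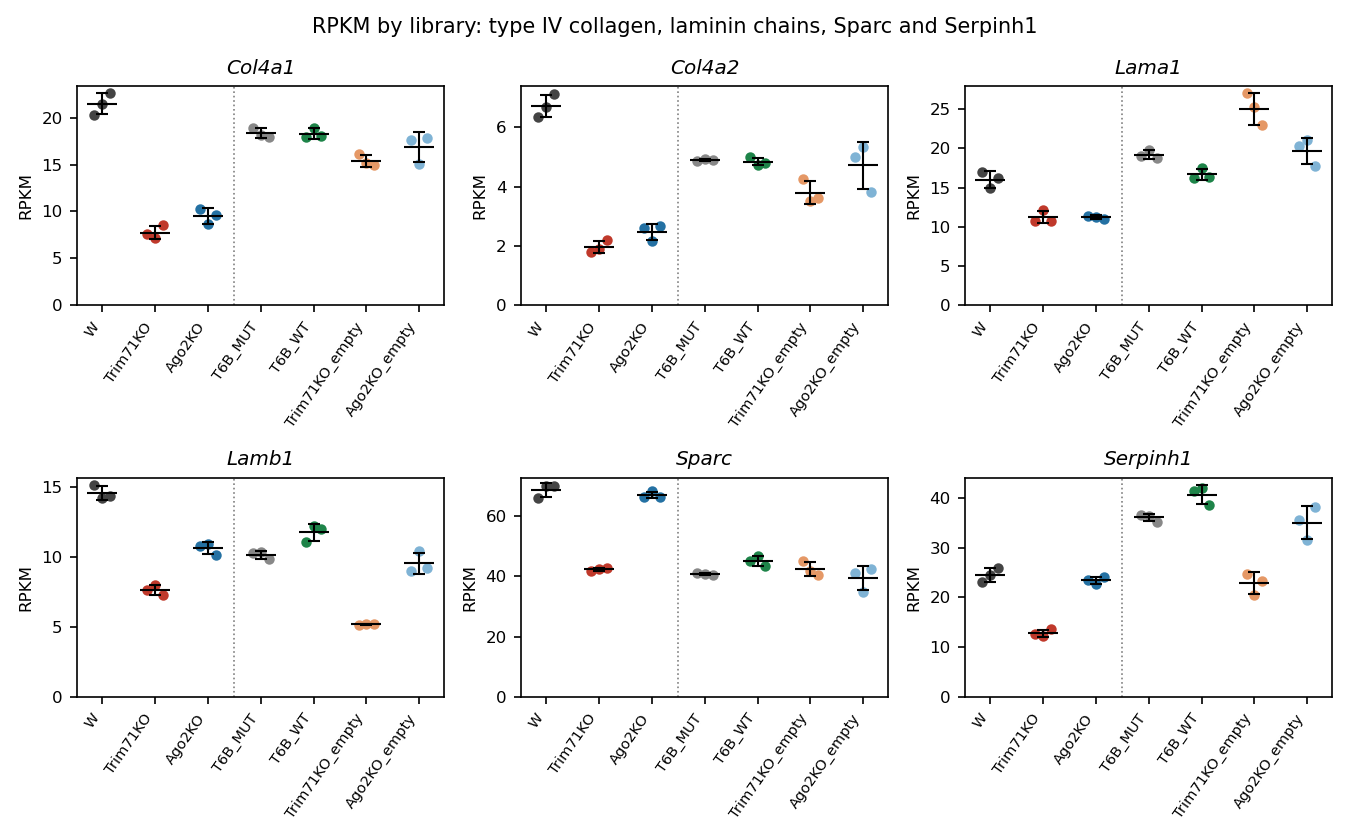
RPKM of Col4a1, Col4a2, Lama1, Lamb1, Sparc and Serpinh1 in each library (points), with the mean and SD of 3 libraries per group (bars); the dotted line separates Experiment 1 (left) from Experiment 2 (right). Col4a1 and Col4a2 are low in both Experiment 1 knockouts and fell less in Trim71KO_empty, while Lamb1 and Serpinh1 are low in the Trim71-/- cells of both.

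Markers of primitive and parietal endoderm, the cell type known for secreting these proteins, moved with type IV collagen in Experiment 1. The 13 markers (transcription factors such as Gata4, Gata6, Sox7 and Sox17, and surface or secretory genes such as Pdgfra, Dab2, Cubn, Lrp2 and Srgn) summed to 14.8 to 15.1 RPKM in W, 3.11 to 3.2 in Trim71KO and 6.84 to 7.78 in Ago2KO. Of the 13, 11 fell in Trim71KO and 10 in Ago2KO, where 15.6% and 7.78% of all genes did. None rose, where 16.9% and 10.2% of all genes did. Gata6 averaged 1.03 RPKM in W and 0.0536 in Trim71KO, and no marker of this list was at 0 in any library. In Experiment 2 the sum was 10.3 to 10.4 in T6B_MUT, 9.06 to 9.64 in T6B_WT, 4.31 to 5.14 in Trim71KO_empty and 8.27 to 11.4 in the libraries labelled Ago2KO_empty. In those labelled Ago2KO_empty, 5 of the 13 were lower (Cubn, Dab2, Gata6, Sox17 and Srgn), where 12.4% of all genes were. There 1 was higher, where 16.4% of all genes were: Lrp2, at 5.30 RPKM on average against 3.57 in T6B_MUT. In Trim71KO_empty 9 of the 13 fell and 1, Sox7, rose, where 13.4% and 14.4% of all genes did. Col4a1 fell by 0.25 there. The part of such cells in the results for the matrix genes was not tested. Of 6 trophoblast markers, 6 fell in Trim71KO, where 15.6% of all genes did. In Ago2KO 1 of the 6 rose and 2 fell (10.2% and 7.78% of all genes). Trim71KO_empty had 0 of 5 tested higher and 3 lower (14.4% and 13.4%). T6B_WT had 2 of 5 higher and 0 lower (9.29% and 6.69%). In Trim71KO 1 of 6 mesoderm markers rose and 2 fell, and 1 of 3 neuroectoderm markers tested rose and 1 fell.

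**Figure D4:**
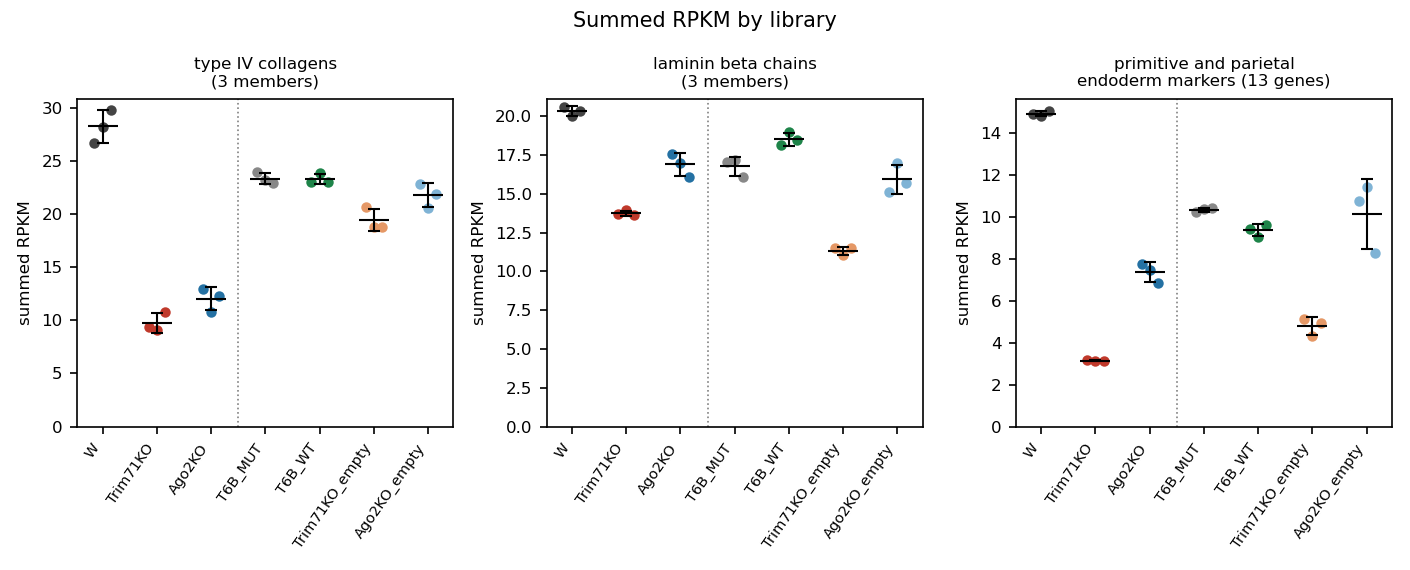
RPKM summed over the 3 type IV collagens, the 3 laminin beta chains and the 13 primitive and parietal endoderm markers in each library (points), with mean and SD (bars). The endoderm markers are lower in the Trim71-/- cells of both experiments, and the type IV sum in Trim71KO (9.08 to 10.8) and Ago2KO (10.8 to 12.9) lies below that of W (26.7 to 29.8).

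Among laminin alpha chains, Lama1, the chain of the first embryonic laminin, changed direction between the experiments. Lama1 (ENSMUSG00000032796, chr17:67697259-67822647, plus strand) was at 17.0, 14.9 and 16.2 RPKM in W, 10.8, 12.1 and 10.7 in Trim71KO and 11.4, 11.3 and 11 in Ago2KO. It fell in both, by 0.52 ± 0.06 in each, with no overlap with W. In Experiment 2 it was at 19.0, 19.8 and 18.7 in T6B_MUT and at 27, 25.3 and 22.9 in Trim71KO_empty, a rise of 0.39 ± 0.08 (edgeR adjusted p = 8.7e-04). The difference between experiments was 0.91 ± 0.10 for Trim71 and 0.56 ± 0.10 for Ago2, and both passed the test. The endoderm marker sum was lower in both Trim71-/- groups, and its part in the Lama1 values was not tested.

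Lama5, the alpha chain of most adult epithelial basement membranes, fell in Trim71KO (-0.32 ± 0.06) and rose in Ago2KO (0.31 ± 0.06), so that the 2 knockouts of Experiment 1 lay on opposite sides of W. It rose in Trim71KO_empty by 0.58 ± 0.16, with RPKM of 33.2, 22.8 and 24.8 against 18.3, 19.4 and 16.5, and replicate 1 was the highest library. That call was lost without T6B_MUT replicate 1 or 3 (adjusted p up to 0.071). It was also higher in the libraries labelled Ago2KO_empty (0.63 ± 0.16), a call lost without T6B_MUT replicate 3 or Ago2KO_empty replicate 1 or 2 (adjusted p up to 0.061).

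Lama3, the alpha chain of the epidermal laminin, was low in these cells and moved in opposite directions with Trim71 loss and with T6B. It was at 0.584, 0.593 and 0.513 RPKM in W and at 0.272, 0.263 and 0.208 in Trim71KO, a fall by 1.20 ± 0.12 on the log2 scale. In T6B_WT it was at 1.04, 1.13 and 1.07, against 0.484, 0.562 and 0.522 in T6B_MUT, a rise of 1.05 ± 0.10 (edgeR adjusted p = 9.1e-07), and it was also higher in the libraries labelled Ago2KO_empty (0.77 ± 0.10). The groups did not overlap in any of these. In Trim71KO_empty Lama3 gave -0.28, which was not called. Its Trim71 fold change was higher in Experiment 2 by 0.92, a difference that passed the test. Lama3 overlaps 4 other annotated genes, 1 of them on the same strand, and their reads could not be told apart from its own here.

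Lamb1, the beta chain that pairs with Lama1 in embryonic laminin, fell by a similar amount in the Trim71-/- cells of both experiments. Lamb1 (ENSMUSG00000002900, chr12:31265234-31329644, plus strand) was at 15.2, 14.3 and 14.4 RPKM in W and at 7.67, 8.0 and 7.29 in Trim71KO. In Experiment 2 it was at 10.3, 10.4 and 9.84 in T6B_MUT and at 5.17, 5.19 and 5.24 in Trim71KO_empty. The log2 fold changes were -0.94 ± 0.05 and -0.96 ± 0.07 (edgeR adjusted p = 1.1e-08 in both), and their difference, -0.03 ± 0.09, did not pass the test. It fell by 0.46 ± 0.05 in Ago2KO, but gave -0.07 ± 0.07 in the libraries labelled Ago2KO_empty and rose by 0.22 ± 0.07 with T6B_WT. The endoderm marker sum was also lower in both Trim71-/- groups, and its part was not tested. Lamb2, the beta chain of later basement membranes, lay between -0.11 and 0.16 in the 5 control comparisons and passed the test in none.

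Lamc1, the gamma chain shared by most laminins, hardly moved. It was at 74.5, 71.5 and 73.9 RPKM in W and 65.2, 67.8 and 63.5 in Trim71KO, a fall by 0.16 ± 0.04 (edgeR adjusted p = 0.0097), and it passed the test in no other comparison with a control.

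Of the proteins that connect the networks, Nid1 rose in 4 of the 5 comparisons with a control. Nid1 (ENSMUSG00000005397, chr13:13437551-13512269, plus strand), which bridges laminin and type IV collagen, was at 21.4, 20.5 and 21.1 RPKM in W, 28.1, 29.4 and 27.4 in Trim71KO and 29.8, 29.1 and 28.0 in Ago2KO. In Experiment 2 it was at 22.9, 23.3 and 23.8 in T6B_MUT and at 32.8, 31.4 and 33.1 in T6B_WT. Neither experiment's control overlapped with these groups. Its log2 fold change was 0.43 ± 0.05 in Trim71KO, 0.46 ± 0.05 in Ago2KO, 0.48 ± 0.10 with T6B_WT and 0.55 ± 0.10 in the libraries labelled Ago2KO_empty, all called, and 0.15 ± 0.10 in Trim71KO_empty, which was not. Nid2, its paralog, moved less. It gave -0.11 ± 0.05 in Trim71KO and 0.13 ± 0.05 in Ago2KO, neither called. It was higher in the libraries labelled Ago2KO_empty (0.24 ± 0.06), a call kept when any 1 library was left out, and with T6B_WT (0.20 ± 0.06), a call lost without 5 of 6 single libraries.

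Sparc, a glycoprotein that binds type IV collagen, fell in Trim71KO and in no other comparison with a control. Sparc (ENSMUSG00000018593, chr11:55394500-55423183, minus strand) was at 66.0, 70.2 and 69.9 RPKM in W, 41.8, 42.6 and 42.8 in Trim71KO and 66.5, 68.3 and 66.3 in Ago2KO. Only the Trim71KO libraries stood apart from W, with a fall by 0.70 ± 0.04 (edgeR adjusted p = 2.4e-08). In Experiment 2 the 3 T6B_MUT libraries were at 41.1, 40.7 and 40.4 and Trim71KO_empty at 45.0, 41.8 and 40.5. The Trim71 fold changes differed between the experiments by 0.76 ± 0.09 (adjusted p = 1.5e-06). The endoderm marker sum was lower in both Trim71-/- groups, and its part in the Sparc values was not tested.

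Fibronectin and perlecan varied widely among the libraries labelled Ago2KO_empty. Fn1, the integrin ligand of interstitial matrix, rose in Trim71KO by 0.42 ± 0.08, with RPKM of 48.2, 51.9 and 42.3 against 38.7, 33.4 and 34.4 in W. In the libraries labelled Ago2KO_empty it was at 61.2, 106 and 38.4, against 44.0, 52.9 and 42.7 in T6B_MUT, and these groups overlapped (0.59 ± 0.32, adjusted p = 0.20). Hspg2, which encodes perlecan, was at 21.2, 32.1 and 13.7 there. The same order of libraries, replicate 2 highest and replicate 3 lowest, was that of Ago2 itself, and the part of Ago2 in this spread was not tested. Hspg2 rose in Ago2KO by 0.32 ± 0.07 and fell in Trim71KO by 0.21 ± 0.07, a call lost without W replicate 1 or 3 or Trim71KO replicate 1 or 3 (adjusted p up to 0.093). Agrn, the proteoglycan agrin, lay between -0.17 and 0.15 in the 5 comparisons.

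**Figure D5:**
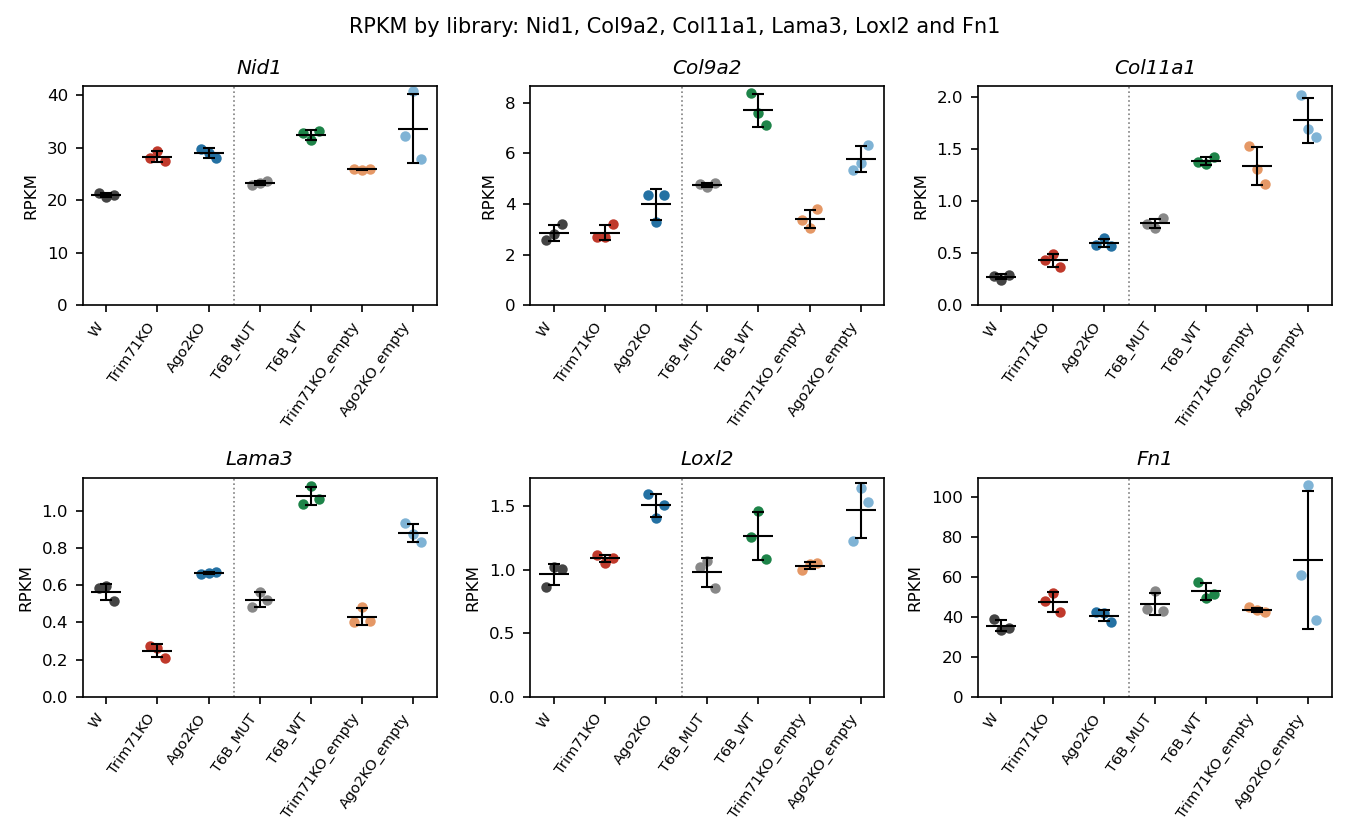
RPKM of Nid1, Col9a2, Col11a1, Lama3, Loxl2 and Fn1 in each library (points), with the mean and SD of 3 libraries per group (bars); the dotted line separates Experiment 1 (left) from Experiment 2 (right). Col11a1 lies above its control in every treated or edited group, and 1 library labelled Ago2KO_empty holds 106 RPKM of Fn1.

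Fibrillar collagens, which build the banded fibres of connective tissue, were weakly expressed, with 8 members summing to 3.26 to 3.77 RPKM in W. Col11a1, a chain of type XI collagen, rose in all 5 comparisons with a control. Col11a1 (ENSMUSG00000027966, chr3:114030540-114220718, plus strand) was at 0.280, 0.244 and 0.290 RPKM in W, 0.437, 0.490 and 0.363 in Trim71KO and 0.575, 0.641 and 0.573 in Ago2KO. Neither knockout overlapped with W. In Experiment 2 it was at 0.780, 0.744 and 0.833 in T6B_MUT, 1.38, 1.36 and 1.43 in T6B_WT, 1.53, 1.31 and 1.17 in Trim71KO_empty, and 2.02, 1.69 and 1.62 in the libraries labelled Ago2KO_empty. The log2 fold changes, in that order of comparisons, were 0.65 ± 0.12, 1.13 ± 0.12, 0.82 ± 0.10, 0.77 ± 0.10 and 1.19 ± 0.10. Of these comparisons, 3 share the T6B_MUT libraries and 2 share W. The 3′ untranslated region of Col11a1 holds miR-29 matches at bases 256 and 306, the former shown above. Col4a1 and Col4a2, which fell in Ago2KO, also hold miR-29 matches. The part of these matches was not tested.

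With T6B_WT, 5 of the 8 fibrillar collagens rose and 0 fell (median 0.51), where 9.29% and 6.69% of all genes did. The counts were 5 higher and 0 lower in the libraries labelled Ago2KO_empty (median 0.55), where 16.4% and 12.4% of all genes were. Col5a1, a chain of type V collagen that nucleates fibrils, was at 1.92, 1.88 and 1.88 RPKM in T6B_MUT and 2.5, 2.53 and 2.36 in T6B_WT, a rise of 0.38 ± 0.09, and rose in Ago2KO by 0.43 ± 0.10. Its Trim71KO and Trim71KO_empty values, -0.12 ± 0.10 and 0.07 ± 0.09, were not called. Col2a1, the cartilage collagen, fell in both Trim71-/- groups (-1.05 ± 0.18 and -0.66 ± 0.17) and rose with T6B_WT (0.84 ± 0.15). Col5a2 rose by 1.20 ± 0.15 with T6B_WT and by 1.42 ± 0.15 in Trim71KO_empty, from 0.100 to 0.139 RPKM in T6B_MUT, but gave 0.27 ± 0.15 in Trim71KO.

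The remaining 12 collagens, which include fibril-associated, transmembrane and beaded-filament chains were lower more often than higher in the Trim71-/- cells. In Trim71KO 6 fell and 0 rose (median -0.62), where 15.6% and 16.9% of all genes did. In Trim71KO_empty 6 fell and 3 rose (median -0.33), where 13.4% and 14.4% did. Col18a1, whose C-terminal fragment is endostatin, was the most abundant. Col18a1 (ENSMUSG00000001435, chr10:77052178-77166548, minus strand) was at 73.8, 83.0 and 88.4 RPKM in W, 48.6, 48.0 and 58.2 in Trim71KO, 60.2, 59.2 and 58.1 in T6B_MUT and 37.2, 36.0 and 38.7 in Trim71KO_empty. Each Trim71-/- group lay wholly below its control, by 0.67 ± 0.09 and 0.66 ± 0.06 on the log2 scale, with a difference of 0.00 ± 0.10 between the experiments. It gave -0.27 ± 0.09 in Ago2KO, which was not called, and -0.20 ± 0.06 in the libraries labelled Ago2KO_empty, a call lost without T6B_MUT replicate 1 or Ago2KO_empty replicate 1 (adjusted p up to 0.058).

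Col9a2, a fibril-associated chain of cartilage, rose with T6B_WT from 4.68 to 4.81 RPKM in T6B_MUT to 7.12 to 8.37 (0.70 ± 0.09, edgeR adjusted p = 2.5e-05). It also rose in Ago2KO (0.48 ± 0.12, adjusted p = 0.055 without Ago2KO replicate 3) and fell in Trim71KO_empty (-0.48 ± 0.09), while Trim71KO gave 0.00 ± 0.12. In the libraries labelled Ago2KO_empty it was 0.29 ± 0.09, a call lost without any one T6B_MUT library or Ago2KO_empty replicate 3 (adjusted p up to 0.093). Col13a1, a transmembrane collagen, fell in Trim71KO_empty by 1.02 ± 0.15, from 0.584 to 0.716 RPKM in T6B_MUT to 0.270 to 0.349. Col6a4 rose in the same comparison by 0.94 ± 0.13. Its value in the libraries labelled Ago2KO_empty, 0.50 ± 0.13, lost its call without T6B_MUT replicate 1 or Ago2KO_empty replicate 1 (adjusted p up to 0.067). Col6a5, a type VI chain like Col6a4, fell in both Trim71-/- groups and was called higher in other groups of Experiment 2. It fell in Trim71KO (-1.45 ± 0.15) and Trim71KO_empty (-0.57 ± 0.17), and was higher with T6B_WT (0.71 ± 0.15) and in the libraries labelled Ago2KO_empty (1.45 ± 0.14). Ago2KO gave 0.32 ± 0.13, which was not called.

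Of the 4 enzymes and chaperones among the members, 3 fell in Trim71KO (15.6% of all genes did) and 2 in Trim71KO_empty (13.4%), and none rose in either. Serpinh1 (ENSMUSG00000070436, chr7:99345376-99353239, minus strand) was at 23.1, 24.5 and 25.9 RPKM in W and at 12.6, 12.2 and 13.6 in Trim71KO. It was at 36.6, 36.4 and 35.3 in T6B_MUT and at 24.8, 20.5 and 23.4 in Trim71KO_empty. The groups did not overlap in either experiment, and the falls were 0.94 ± 0.06 and 0.66 ± 0.07, with a difference of 0.28 ± 0.10 that did not pass the test (edgeR adjusted p = 0.076). Its values were -0.06 ± 0.06 in Ago2KO and -0.02 ± 0.07 in the libraries labelled Ago2KO_empty.

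P4ha1 and P4ha2, the catalytic subunits of collagen prolyl 4-hydroxylase, followed type IV collagen in Experiment 1. P4ha2 was at 2.04, 2.26 and 2.23 RPKM in W, 1.12, 0.870 and 1.10 in Trim71KO and 1.34, 1.15 and 1.12 in Ago2KO, and fell by 1.08 ± 0.10 and 0.86 ± 0.10. P4ha1 fell by 0.50 ± 0.07 and 0.44 ± 0.07. In Experiment 2, P4ha2 fell in Trim71KO_empty (-0.39 ± 0.08), and P4ha1 gave -0.04 ± 0.09 there. The differences between experiments passed the test for both genes, for Trim71 and for the libraries labelled Ago2KO and Ago2KO_empty. However, that of P4ha1 for Ago2, 0.43 ± 0.11, was lost when any of 8 single libraries was left out (adjusted p up to 0.12). Those libraries were W replicate 2, every Ago2KO and T6B_MUT library, and replicate 1 of Ago2KO_empty, and the range of its difference was 0.39 to 0.47.

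Loxl2, which cross-links type IV collagen, moved the other way from the prolyl hydroxylases in Ago2KO. It was at 0.867, 1.02 and 1.00 RPKM in W and at 1.6, 1.41 and 1.51 in Ago2KO, a rise of 0.65 ± 0.09 (edgeR adjusted p = 2.4e-04). In the libraries labelled Ago2KO_empty it was 0.60 ± 0.13 above T6B_MUT. T6B_WT gave 0.38 ± 0.13, which missed the threshold (adjusted p = 0.057), and both Trim71-/- groups lay within 0.18 of their controls.

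The members with and without a miR-29 match were counted separately. With T6B_WT, 5 of the 16 with a match rose (median 0.30), and 8 of the 26 without one did (median 0.20), where 9.29% of all genes rose. In Ago2KO, 3 of 16 rose and 5 of 26 did, where 10.2% of all genes rose. There 2 of 16, Col4a1 and Col4a2, and 4 of 26 fell, where 7.78% of all genes did. In Trim71KO, 7 of 16 and 15 of 26 fell, where 15.6% of all genes did, and 2 of 16 and 3 of 26 rose, where 16.9% did. In the libraries labelled Ago2KO_empty, 8 of 16 were higher (median 0.37) and 9 of 26 (median 0.23), where 16.4% of all genes were. These counts were not tested against each other.

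Genes around the set were read from 4 lists. Of the matrix receptors, 22 of the 25 listed were in the table, and with T6B_WT 8 rose and 2 fell, among them Itgav (0.80), the alpha V integrin that binds fibronectin, and Itgb4 (0.99), the laminin-binding beta 4 integrin. Both also rose in Ago2KO (0.45 and 0.95). In Trim71KO 8 of the 21 receptors tested rose and 8 fell, Itgav at 0.56 and Itgb4 at -0.63, while in Trim71KO_empty 9 of 22 rose and 1 fell. Over all genes, 9.29% rose and 6.69% fell with T6B_WT, 16.9% and 15.6% in Trim71KO, and 14.4% and 13.4% in Trim71KO_empty. Of other basement membrane and matrix glycoproteins, 12 of 21 tested rose and 0 fell with T6B_WT, with a median of 0.42 against 0.01 over all genes. Among them were the nephronectin gene Npnt (0.95), an integrin ligand, and fibrillin 1 (Fbn1, 0.42), the microfibril protein. In the libraries labelled Ago2KO_empty 10 of 21 were higher and 0 lower, where 16.4% and 12.4% of all genes were. In Trim71KO 5 of 20 rose and 6 fell.

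Among 26 other enzymes of collagen processing, 8 rose and 0 fell with T6B_WT, where 9.29% and 6.69% of all genes did. Those that rose included Plod2 (0.44), a lysyl hydroxylase, and Bmp1 (0.46), the procollagen C-proteinase. In Trim71KO 5 rose and 8 fell, where 16.9% and 15.6% of all genes did, with Plod2 at 0.17 and Bmp1 at -0.82. Of the proteases and inhibitors, 7 of 21 tested rose and 1 fell with T6B_WT, and 3 of 22 rose and 8 fell in Trim71KO. The shares of all genes are those just given for each comparison. The gelatinase gene Mmp9 fell in both Experiment 1 knockouts (-2.12 and -0.94). It was also lower in Trim71KO_empty (-1.63) and in the libraries labelled Ago2KO_empty (-0.71). The inhibitor gene Timp3 fell in Trim71KO (-0.90). All of these are log2 fold changes from edgeR at an adjusted p under 0.05. Timp3 gave -0.11 in Trim71KO_empty, which was not called, and its Trim71 fold change was higher in Experiment 2 by 0.79 (edgeR adjusted p = 0.035).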

How the data were processed

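The members and all gene lists were chosen with earlier results of these data known. Per the file headers, the authors deposited 1 table with a raw read count and an RPKM value per gene and library, and a gene length in bases. Per the submitters' processing notes, STAR 2.7.3a, bcl2fastq 2.17 and the builds GRCm38 and mm10 were used; the annotation, counting options and use of strand are not given in the sources used here. The lowest row total was 17 counts. Raw counts entered all tests. Deposited RPKM gave levels.

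Tests were edgeR 4.0.16 quasi-likelihood F tests (R 4.3.3; TMM, filterByExpr with a minimum count of 10, Benjamini-Hochberg adjustment over all genes tested, call at adjusted p under 0.05), fitted over the 9 libraries of Experiment 1, the 12 of Experiment 2, or all 21 for differences between experiments. Log2 fold changes are given with SE. The code was tested on simulated data. No pair of replicates agreed within sampling noise. Of the members counted, 1 is not reported here by name. Named members were a fixed set of matrix genes plus, per control comparison, the 4 largest rises and 4 largest falls among called members with a mean RPKM of at least 0.5 and no overlap of groups; Lamb2, Col4a5, Col5a1, Col2a1, Col5a2 and Col6a5 were named after their values were seen, as were the examples from the pathway and marker lists. Alternatives were DESeq2 1.42.0, library totals in place of TMM, other filters, the compared groups only, a replicate block and leaving out each library. Coordinates and 3′ untranslated regions are from GENCODE M21.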

Additional observations from a re-analysis of the deposited data

Results flagged for a closer look

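The results below were listed because a fold change differed between the experiments by the interaction test in edgeR (adjusted p under 0.05 over all genes). Each value is the log2 fold change in Experiment 2 minus that in Experiment 1. Outlying libraries were not looked for, since groups held 3.

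For Trim71, the difference was 1.23 for Col4a1, 1.41 for Col4a2, 0.91 for Lama1, 0.92 for Lama3, 0.90 for Lama5 and 0.66 for Lamb3. It was 0.76 for Sparc, 0.46 for P4ha1 and 0.69 for P4ha2. Among other collagens it was 2.44 for Col11a2, 2.37 for Col20a1, 1.22 for Col6a4, 1.15 for Col5a2, 0.97 for Col17a1, 0.88 for Col6a5 and 0.60 for Col7a1. It was negative for Col9a2, at -0.48, and Col13a1, at -0.72.

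For Ago2, the Experiment 2 side is the libraries labelled Ago2KO_empty, in which Ago2 RNA was not called lower (edgeR adjusted p = 0.60). The difference was 1.07 for Col4a1, 1.39 for Col4a2, 0.56 for Lama1 and 0.38 for Lamb1. It was 0.43 for P4ha1, 0.71 for P4ha2, 0.97 for Col5a2 and 1.13 for Col6a5. Lamb1 lost its call without Ago2KO replicate 3 or T6B_MUT replicate 3 (adjusted p up to 0.058).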

How the results depend on the processing

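Directions were compared for the 79 calls of members named by the rule, over the comparisons with a control and the differences between experiments. None of these reversed under the alternatives run, and 16 lost their call in at least 1 alternative. The directions of the other members are not given here. Of the counts, the 2 members higher in Trim71KO than in Ago2KO became 1 with library totals in place of TMM, with no filter and with a filter on CPM, and the 1 lower in the libraries labelled Ago2KO_empty than in T6B_MUT became 2 under the same 3 settings. With only the compared groups fitted, 1 member fell with T6B_WT in place of 0, 4 in place of 7 were higher in Trim71KO_empty than in the libraries labelled Ago2KO_empty, and 4 in place of 2 had a lower Trim71 fold change in Experiment 2. Leaving out 1 library gave 0 to 2 members higher in Trim71KO than in Ago2KO, 0 to 2 lower in the libraries labelled Ago2KO_empty than in T6B_MUT, and 3 to 7 higher in Trim71KO_empty than in the libraries labelled Ago2KO_empty. It gave 0 to 2 with a lower Trim71 fold change in Experiment 2, and 5 to 11 with a higher and 1 to 2 with a lower Ago2 fold change there. The cause was not tested.

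With the replicate number as a block, 5 members rose and 21 fell in Trim71KO, 9 and 7 in Ago2KO, 14 and 0 with T6B_WT, 10 and 13 in Trim71KO_empty, and 18 and 1 in the libraries labelled Ago2KO_empty. Same-numbered libraries correlated between -0.65 and 0.66 in their deviations from the group means, so the numbers were not treated as pairs.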
